A study of Homo sapiens with 12 samples.

Results

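The transcriptome described here is that of untreated SRA01/04 cells, an immortalised human lens epithelial line, as 3 RNA sequencing libraries labelled NC 1, NC 2 and NC 3. They are all the libraries that carry the NC label, out of 12 in the series. The other 9 fall in 3 groups of 3 libraries of the same line, given asparagine (NC-A), the naphthalene metabolite 1,2-DHN (DHN) or both (DHN-A), and no comparison with them is made. NC stands for cells given neither compound, harvested with the others at 24 hours. All groups share 1 immortalised line, and the labels do not say whether the 3 libraries came from separate cultures, so every SD below is the spread between these libraries and may be technical. The total count was 16514049 in NC 1, 21151832 in NC 2 and 24225424 in NC 3.

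The lens is made of a single sheet of epithelial cells and the elongated fibre cells that they give rise to. Fibre cells fill with crystallins, the soluble proteins that make the lens refractive, and carry the membrane channel MIP and connexins such as GJA3. The epithelium is maintained by PAX6, FOXE3 and related transcription factors, and lens epithelial cells that take on a mesenchymal form after injury produce vimentin, fibronectin, collagens and contractile proteins.

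Levels are in TPM, the count of a gene divided by its deposited length and scaled to the same sum in every library, so that levels can be compared between genes. A gene counts as expressed when it reached 1 TPM in each of the 3 libraries. In these bulk libraries, a gene at a low level in every cell and a gene at a high level in a few cells cannot be told apart.

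The bases upstream of 4 genes are shown first as examples of high, low and uncounted genes named in the text: VIM at 2400 TPM, FN1 at 550, the gamma-crystallin gene CRYGS at 3.01, and the fibre channel gene MIP with no count. Each run holds the 250 bases before the RefSeq start, written 5′ to 3′ on the gene's strand in build GRCh38.p14. Capitals mark CG pairs and the hexamer TATAAA (or TTTATA, the same letters on the other strand). The windows are chr10:17227991-17228240 on the plus strand for VIM, chr2:215436069-215436318 on the minus strand for FN1, chr3:186544381-186544630 on the minus strand for CRYGS and chr12:56454658-56454907 on the minus strand for MIP.
VIM: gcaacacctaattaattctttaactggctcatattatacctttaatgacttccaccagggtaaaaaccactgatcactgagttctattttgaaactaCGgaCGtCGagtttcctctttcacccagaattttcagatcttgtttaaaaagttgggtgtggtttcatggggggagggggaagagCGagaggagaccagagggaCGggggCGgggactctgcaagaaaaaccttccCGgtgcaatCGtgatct
FN1: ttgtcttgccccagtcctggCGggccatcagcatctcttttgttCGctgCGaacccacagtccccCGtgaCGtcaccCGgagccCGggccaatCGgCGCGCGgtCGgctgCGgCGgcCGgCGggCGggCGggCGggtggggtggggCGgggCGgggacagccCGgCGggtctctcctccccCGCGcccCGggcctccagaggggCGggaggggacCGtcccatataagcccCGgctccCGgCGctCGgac
CRYGS: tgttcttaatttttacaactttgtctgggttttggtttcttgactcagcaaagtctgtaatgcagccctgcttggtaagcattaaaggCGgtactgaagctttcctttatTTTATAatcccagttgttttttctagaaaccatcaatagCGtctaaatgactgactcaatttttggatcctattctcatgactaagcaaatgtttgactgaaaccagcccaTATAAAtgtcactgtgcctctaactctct
MIP: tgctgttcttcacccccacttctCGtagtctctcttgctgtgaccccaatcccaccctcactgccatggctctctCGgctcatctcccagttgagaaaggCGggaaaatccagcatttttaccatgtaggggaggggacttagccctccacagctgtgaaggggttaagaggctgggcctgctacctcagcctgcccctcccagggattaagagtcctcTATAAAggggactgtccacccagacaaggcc
The FN1 window held 32 CG pairs and the VIM window 8, while CRYGS had 2 and MIP had 3. The median over the 35116 windows of the RefSeq table was 11. TATAAA was found on the strand of the gene in the CRYGS and MIP windows, beginning 29 and 31 bases before the start, and on neither strand in the VIM and FN1 windows. It occurs on at least 1 strand in 10.7% of all windows of this length. Only exact matches were sought, so hexamers that differ by 1 letter, as TATAAG near the end of the FN1 window, are not marked. RefSeq windows were listed for 15 of the 17 crystallin genes and for 3 of the 4 identity markers. A match of letters is a description of the window, and no binding was measured.

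Of 60641 symbols, 15754 were expressed, and 26346 had no count in any of the 3 libraries. Among 19864 protein-coding symbols, 12057 (60.7%) were expressed, and 8787 (44.2%) reached 10 TPM in every library. There were 1648 at 100 TPM or more and 78 at 1000 TPM or more. The median level over all protein-coding symbols was 6.43 TPM, and 25.2 TPM over the expressed ones. These values (60.7% expressed, median 6.43 TPM) are the background against which each gene list below is set. Protein-coding genes took 92.3% of all TPM. Another 1546 long non-coding genes and 1663 pseudogenes were expressed, and they held 1.19% and 3.07% of TPM. A pseudogene shares its sequence with a parent gene, so its reads may belong to the parent.

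**Figure D1:**
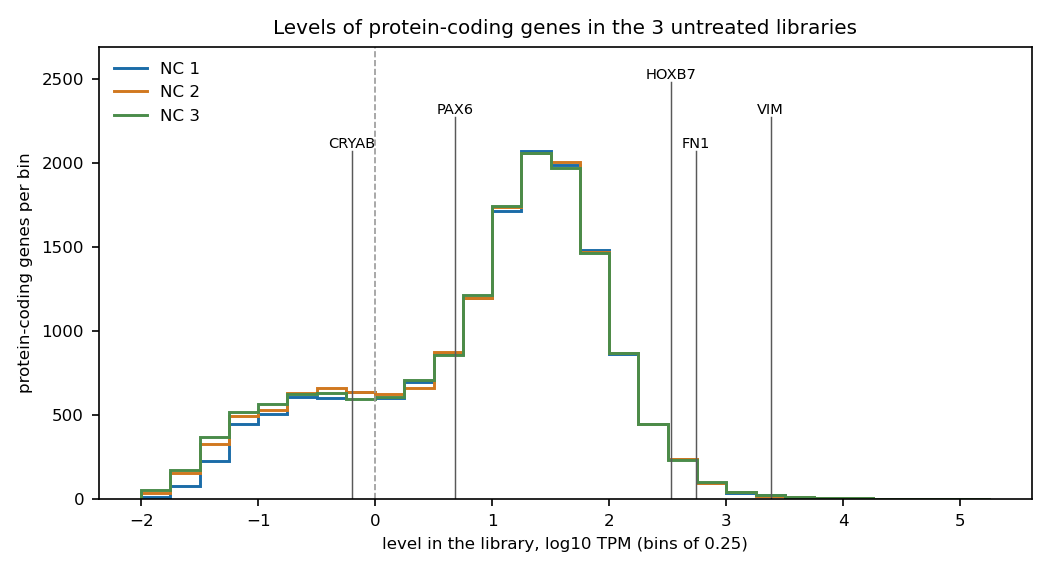
Protein-coding genes per bin of level (x axis, log10 TPM in steps of 0.25; y axis, number of genes), 1 line per untreated library, with the dashed line at 1 TPM and 5 genes marked at their mean. The lines of the 3 libraries nearly coincide above 1 TPM; CRYAB (0.64 TPM) lies below that line, PAX6 (4.84 TPM) in the sparse range above it, and VIM (2400 TPM) in the upper tail. Genes at 0 are not drawn.

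The 37 mitochondrially encoded genes took 12.5% ± 0.33 (SD, n = 3) of TPM but 3.12% of counts, because TPM divides counts by length. They made up most of the 20 genes of highest level, led by the large ribosomal RNA MT-RNR2 at 19440 TPM and the cytochrome oxidase subunit MT-CO1 at 16319 TPM. All 13 mitochondrial protein genes were expressed, from MT-ND3 at 1762 TPM upwards. Some of them overlap on the mitochondrial genome, as MT-ATP8 does with MT-ATP6, and how shared reads were counted is not known. Among the nuclear genes of highest level, TMSB10, which encodes an actin-binding thymosin, had 10275, 10461 and 10862 TPM in NC 1, NC 2 and NC 3. ACTB (6149 TPM), the chaperone gene HSP90AB1 (5393 TPM), GAPDH (4732 TPM) and CALR (3782 TPM) were also among the 20. All 79 cytosolic ribosomal protein genes were expressed, with a median of 376 TPM and 4.44% ± 0.11 of TPM. The 100 genes of highest level held 29% of TPM.

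The 4 markers proposed for the line were measured in every library. VIM, the gene of the intermediate filament vimentin (chr10:17228259-17237593), had 2367, 2474 and 2360 TPM in NC 1, NC 2 and NC 3. FN1, fibronectin (chr2:215360440-215436172), had 570, 545 and 537 TPM. These levels placed VIM at rank 30 and FN1 at rank 191 of the expressed protein-coding genes, and the libraries differed little in either. PAX6, the homeobox and paired-box factor of eye development (chr11:31784779-31818062), had 4.91, 4.64 and 4.95 TPM from 410, 499 and 615 counts. It was therefore expressed, but at rank 10435 of 12057. Its deposited length is 20639 bases, and its level is too low if only a shorter isoform is made. CRYAB, alpha-B crystallin (chr11:111908565-111923722), had 0.338, 0.962 and 0.606 TPM from 6, 22 and 16 counts. It did not reach 1 TPM in any library. Its deposited length is 4388 bases, so the same limit applies. Neighbours in the order of the 4 markers did not overlap in any library. Exons on the opposite strand cover 24.4% of the VIM exon bases (VIM-AS1), 26.1% of those of PAX6 (ELP4) and 20.6% of those of CRYAB (HSPB2). No source used here gives the strand setting of the counting. HSPB2 itself had no count.

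The crystallin genes were close to absent. Of 17, 3 were expressed (17.6%, against 60.7% of protein-coding symbols), with a median of 0.208 TPM. The expressed members were CRYZ (28.2 ± 1.69 TPM) and CRYL1 (8.1 ± 0.675 TPM), enzymes related to crystallins of other species, and CRYGS. CRYGS, gamma-S crystallin, had 4.4, 2.4 and 2.24 TPM from 37, 26 and 28 counts, highest in NC 1, and 14.5% of its exon bases are shared with TBCCD1 on the same strand. Of the structural alpha, beta and gamma crystallins it was the only member past 1 TPM in all libraries. CRYBB3 had 2.02, 0.674 and 0.389 TPM from 7, 3 and 2 counts, so only NC 1 passed. CRYAA had 0.0609 TPM on average. CRYGA, CRYGB, CRYGC, CRYGD, CRYBA4 and CRYBB1 had no count. For CRYGD, 3 counts in the smallest library would have given 1.2 TPM, which is the level that no count in that library allows by counting error alone.

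The transcription factors of the lens divided by member. Of 22 factors, 11 were expressed (50%), and the median was 1 TPM. MAFG, a small MAF protein, was highest with 50.5 ± 1.02 TPM. TFAP2A had 34.7 ± 2.52 and SIX3 20.9 ± 2.13 TPM. SIX3, which works beside PAX6 in the early eye field, had 22.8, 21.2 and 18.6 TPM from 250, 300 and 303 counts. PAX6 had more counts in every library (410, 499 and 615). Its lower TPM follows from a deposited length of 20639 bases, against 2713 for SIX3. The order of these genes therefore depends on the lengths. GATA3, LHX2 and MEIS2 lay close together, at 15.4, 15.2 and 14.9 TPM. Several factors of lens epithelium and fibres were at or near 0. FOXE3, which keeps the lens epithelium proliferating, had 0.14, 0.869 and 0.188 TPM from 1, 8 and 2 counts. PROX1 and MAF, which drive crystallin genes in fibre cells, averaged 0.129 and 0.0971 TPM. PITX3 averaged 0.18 TPM, and SOX1, SOX2 and OTX2 had no count. For SOX2, 3 counts in the smallest library would have given 0.3 TPM. HSF4, the heat shock factor of the postnatal lens, was expressed at 1.61 ± 0.187 TPM from 19, 30 and 35 counts. Same-strand exons of AC074143.1 share 31.4% of the HSF4 exon bases.

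Genes of lens structure were uneven within each group. Of 20, 10 were expressed (50%). MIP and LIM2, which encode fibre membrane proteins, had no count in any library. Of the MIP exon bases, 56.7% are shared with the gene AC097104.1 on the same strand, and reads there may not have been assigned. GJA3, a fibre connexin, reached 1.98 ± 0.137 TPM. Of the beaded filament genes of fibres, BFSP1 had 4.55 ± 0.452 TPM and BFSP2 0.146. Of 6 epithelial channel and junction genes, 3 were expressed. The connexin gene GJA1, which couples lens epithelial cells, had 162, 159 and 151 TPM. CDH2, N-cadherin, had 205, 206 and 195 TPM, and EPHA2, an ephrin receptor linked to inherited cataract, had 130, 121 and 133 TPM. CDH1, E-cadherin, which lens epithelium also carries, had 1, 1 and 0 counts. The water channel genes AQP1 and AQP5 averaged 0.236 and 0.0294 TPM. Of 8 genes of fibre maturation, 5 were expressed. The small heat shock gene HSPB1 had 998 ± 43.9 TPM and TDRD7, a granule protein whose loss causes cataract, 66.8 ± 4.08 TPM. DNASE2B, the nuclease that clears fibre nuclei, averaged 0.236 TPM, and BIRC7 had no count. Taken over the 3 lens lists, 24 of 59 genes were expressed (40.7%), below the 60.7% of all protein-coding symbols, and 13 had no count.

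The gene levels thus met the label only in part. A lens origin is given by the name of the line, and PAX6, SIX3 and GJA1 were present, PAX6 at rank 10435 of 12057. GJA1 was 1 of the 3 epithelial channel and junction genes expressed, of 6. The others of that group, CDH1, AQP1 and AQP5, were below 1 TPM in every library. FOXE3, a factor of the epithelium, was at or near 0. So were PROX1, MIP and the alpha, beta and gamma crystallins other than CRYGS. PROX1 and MIP are described above as fibre genes, so they bear little on an epithelial label. No other cell type name is given to the cells here.

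**Figure D2:**
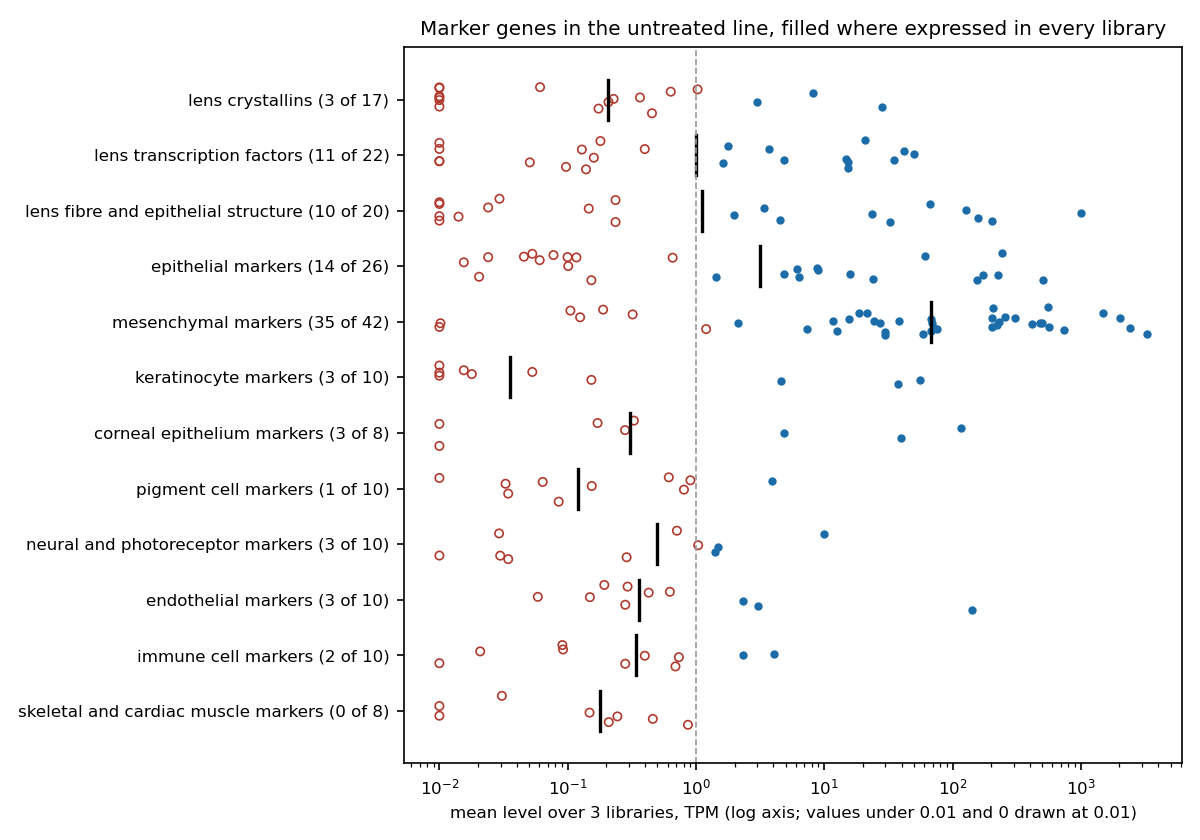
Mean level of each marker gene over 3 libraries (x axis, TPM, log scale) in 12 lists (y axis, with the number expressed of the number in the list); filled points are expressed in every library, open points are not, the black bar is the list's median and the vertical scatter carries no value. The mesenchymal list has its median at 67.9 TPM with 35 of 42 filled, and the crystallin list at 0.208 TPM with 3 of 17 filled.

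Of 42 mesenchymal markers, 35 were expressed (83.3%, against 60.7%), and 17 of them reached 100 TPM in every library. The list's median was 67.9 TPM. All 8 genes of filaments and contraction were expressed. Beside VIM, they included the tropomyosin gene TPM2 (568 ± 24.8 TPM), MYL9 (305 ± 8.11 TPM) and CALD1 (223 ± 9.82 TPM). ACTA2, smooth muscle actin and the usual marker of myofibroblasts, was lowest of the 8 with 21.8, 21.3 and 22 TPM, and exons of ACTA2-AS1 on the other strand cover 30.1% of it. Among surface genes, NT5E, the ecto-nucleotidase CD73, led with 1488 ± 50.4 TPM. The fibronectin receptor subunit ITGA5 had 739 ± 14.2 and CD44, the hyaluronan receptor, 481 ± 18.7 TPM. PDGFRA and CDH11, which mark many fibroblasts, averaged 0.105 and 0.00482 TPM. Of the mesenchymal factors, TWIST2 had 71, 73.8 and 81.7 TPM and ZEB1 70.4, 68.5 and 66.8 TPM, and their ranges did not overlap. SNAI2 and TWIST1 followed at 29.9 and 29.7 TPM, and SNAI1 had 7.36 ± 1.7 TPM. PRRX1 averaged 0.321 TPM. S100A4 was the least even member of this list past 10 TPM on average, with 20.6, 8.93 and 17.6 TPM from 79, 44 and 100 counts.

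Among the collagen genes, collagen VI dominated. COL6A2 had 3338, 3035 and 3393 TPM and COL6A1 2118, 1917 and 2068 TPM, while the chain COL6A3, which assembles with both, had 70.3, 64.9 and 66.8 TPM. NC 2 was lowest for each of the 3 chains. COL6A2 was 48.4 ± 2.2 times COL6A3. The chains of collagen I were uneven in a like way: COL1A1 had 498 ± 16.8 TPM and COL1A2 18.8 ± 0.528 TPM, a ratio of 26.5 ± 1.4. COL3A1 had 1.39, 0.824 and 1.38 TPM, and the small leucine-rich proteoglycan genes LUM and DCN averaged 0.189 and 0.0102 TPM. Of 23 collagen genes, 18 were expressed (78.3%). Collagen IV, the scaffold of the lens capsule, was present as COL4A2 (70.8 ± 3.92 TPM) and COL4A1 (55.1 ± 2.99 TPM), while COL4A3 and COL4A4 averaged 0.0161 and 0.108 TPM. All 13 laminin and linker genes were expressed. LAMB3, a chain of the laminin that anchors epithelia, was highest with 629, 567 and 617 TPM, and LAMC1 followed at 233 ± 9.4 TPM. Integrins, the receptors for these proteins, were expressed in 15 of 18 cases. ITGB1, the common beta chain, had 1271 ± 54.9 TPM and ITGA3, its partner on laminin, 1006 ± 38.2 TPM. ITGB4, the hemidesmosome chain, had 2.02 ± 0.234 TPM.

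Epithelial markers were divided in turn by role. Of 26, 14 were expressed (53.8%), with a median of 3.13 TPM. Keratins of simple epithelia were high. KRT8 had 504, 491 and 523 TPM, and its partner KRT18 had 180, 162 and 179 TPM. KRT7 had 244 ± 7.88 and KRT19 227 ± 7.27 TPM. The stratified keratins KRT5 and KRT14 averaged 0.0155 and 0.053 TPM, although KRT81, a hair keratin, had 142 ± 7.68 TPM. Of adhesion genes, DSP, which links desmosomes to keratin, had 163, 153 and 145 TPM, and TJP1 of tight junctions 60.7 ± 4.21 TPM. CDH1 and EPCAM, the surface proteins that define most epithelia, averaged 0.024 and 0.0456 TPM. Of 8 epithelial factors, only GRHL1 was expressed, with 1.43 ± 0.127 TPM. ESRP1, GRHL2, OVOL1 and OVOL2, which maintain the epithelial state, averaged 0.0997, 0.0775, 0.0605 and 0.101 TPM. Of 9 classical cadherins, CDH2 and CDH3 alone were expressed, CDH3 with 4.83 ± 0.61 TPM. Of 16 connexins, 3 were expressed, and GJC1 (87.8 ± 2.96 TPM) was the highest after GJA1. Of 12 aquaporins, the intracellular AQP11 alone was expressed, with 6.01 ± 0.62 TPM.

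Markers of other cell types were mostly below 1 TPM. No list but the corneal one had more than 30% of its members expressed. Among keratinocyte markers, KRT10 (55.4 ± 2.59 TPM), SFN and KRT15 were expressed, and KRT1, IVL and LOR had no count. Of 10 endothelial markers, 3 were expressed. TIE1 had 140, 137 and 145 TPM, ESAM 3.04 ± 0.0868 and PECAM1 2.32 ± 0.421 TPM, while the endothelial cadherin CDH5, KDR and TEK averaged 0.193, 0.293 and 0.149 TPM. TIE1 is a receptor of the angiopoietin system. Of 10 neural and photoreceptor markers, 3 were expressed. SNAP25, a synaptic fusion protein, had 9.88 ± 0.548 TPM, STMN2 and SYP averaged 1.49 and 1.4 TPM, and RCVRN had no count. MITF, at 3.92 ± 0.947 TPM, was the only pigment cell gene expressed, and TYR had no count. The corneal list held TKT, CLU and PAX6, while the corneal keratins KRT3 and KRT12 averaged 0.328 and 0.171 TPM. Of 10 immune cell markers, 2 were expressed, the Fc receptor chain gene FCER1G (4.06 ± 0.792 TPM) and CD14 (2.33 ± 0.28 TPM). PTPRC, the common leukocyte antigen, averaged 0.0921 TPM, and of 8 muscle markers none was expressed.

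HOX genes, which give body position to cells of the trunk and limbs, were mostly expressed, at levels that differed by cluster. Of 39, 28 were expressed (71.8%, against 60.7%). Their median of 5.23 TPM was below the 6.43 TPM of all protein-coding symbols. They were expressed in 9 of 10 HOXB genes, 9 of 11 HOXA, 7 of 9 HOXC and 3 of 9 HOXD. HOXB7 (chr17:48607227-48633572) had 326, 330 and 355 TPM, the highest of 121 factors in the lists of transcription factors and nuclear receptors. HOXB4 had 81, 71.1 and 77.4 TPM and HOXB9 73.4, 73 and 79.5 TPM, with ranges that overlap. HOXB13, at the far end of the cluster, had 20.5, 17.2 and 21.2 TPM, and HOXB1 at the near end had no count. The summed level of the HOXB genes was 608 ± 22.2 TPM. It was 73.2 ± 1.75 for HOXC, 47.4 ± 0.342 for HOXA and 37.6 ± 3.26 for HOXD, and HOXD4 made up 64.7% of the last. HOX genes overlap one another and their antisense genes on the genome. For HOXD4, 80.5% of the exon bases are shared with AC009336.2 on the same strand. Without genes that share 10% or more of their exon bases on the same strand, 21 HOX genes were expressed. Fewer than 39 HOX genes remain in that set, so the 21 cannot be read as a share of 39.

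**Figure D3:**
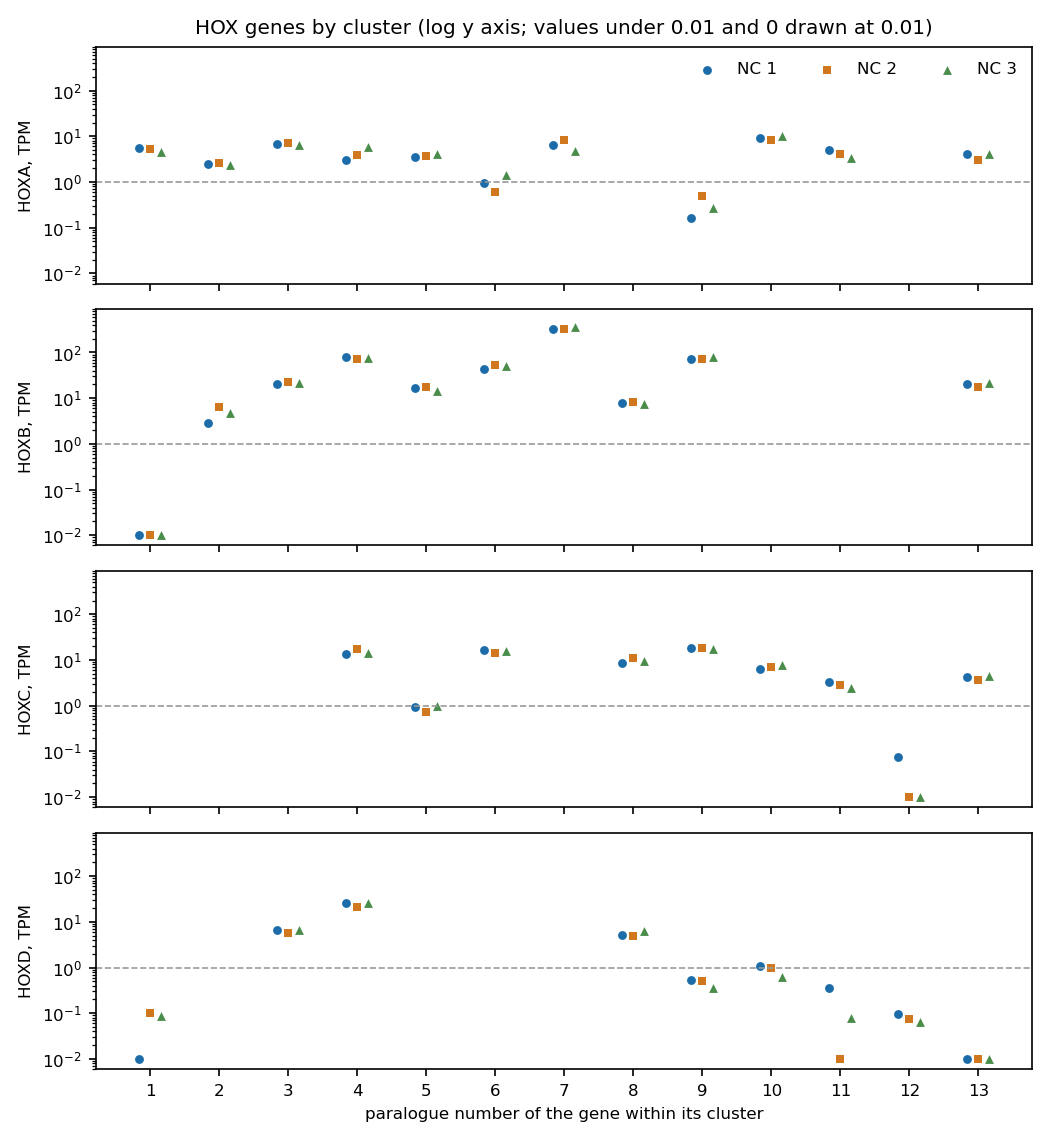
Level of each HOX gene (y axis, TPM, log scale) by its number in the cluster (x axis), 1 panel for each of the clusters A to D and 1 symbol for each library; the dashed line marks 1 TPM. Every HOXB gene but HOXB1 lies above 1 TPM in every library, with HOXB7 at 326 to 355 TPM, and the HOXD genes from 9 onwards lie near or below the line.

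The other homeobox and eye field families were less complete. Of 9 PAX genes, PAX6 and PAX8 (1.31 ± 0.338 TPM) were expressed, and PAX2 and PAX3 averaged 0.0881 and 0.0277 TPM. Of 12 relatives of SIX3, EYA3 and DACH1, which act together in eye development, 7 were expressed. EYA3 had 44.3 ± 1.27 and SIX4 38.7 ± 1.64 TPM. EYA1 and DACH1 averaged 0.00884 and 0.0103 TPM, and EYA2 had no count. Of 28 nuclear receptors, 20 were expressed (71.4%). NR2F2, an orphan receptor of mesenchyme and veins, was highest with 143, 135 and 138 TPM. PPARD (103 ± 1.04 TPM) and the oxysterol receptor NR1H2 (103 ± 3.71 TPM) did not differ beyond their spread, and the glucocorticoid receptor NR3C1, the target of steroids that cause cataract, had 81.0 ± 1.94 TPM. The sex hormone receptors ESR1 and PGR averaged 0.158 and 0.00561 TPM.

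Cell cycle genes were high. Of 17 genes of cycling cells, 16 were expressed. The replication clamp PCNA had 660, 673 and 678 TPM and MKI67, a nuclear protein of dividing cells, 453, 439 and 417 TPM. CCND1 had 526 ± 3.52 TPM and CCND3 67.1 TPM, while CCND2 averaged 0.0155 TPM, so CCND1 made up most of the D-type cyclin level. The brakes on the cycle were also present: all 8 were expressed, led by CDKN1A (350 ± 12 TPM) and CDKN2A (145, 161 and 166 TPM). TERT, the catalytic subunit of telomerase, had 1.13, 0.973 and 0.786 TPM and was not expressed by the rule.

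The lens lives mainly on glycolysis. Glycolytic genes were expressed in 21 of 22 cases (95.5%, against 60.7% of protein-coding symbols), with a median of 249 TPM. GAPDH had 4682, 4670 and 4844 TPM, TPI1 1758 ± 63.7 and ENO1 1563 ± 7.49 TPM. PKM had 1052 ± 21.5 TPM and LDHA, which makes lactate, 690 ± 26.7 TPM. LDHB, its counterpart in oxidative tissues, had 2.82, 2.12 and 3.18 TPM, but 33.4% of its exon bases are shared with AC010197.2 on the same strand. ALDOA, the aldolase, had 43.3 ± 1.89 TPM, low for a glycolytic enzyme, and 42.3% of its exon bases are shared with AC093512.2. Whether reads in the shared bases were left out of the count was not tested. The glucose transporter gene SLC2A1, which serves the lens epithelium, had 280, 271 and 282 TPM, and the insulin-responsive SLC2A4 averaged 0.0484 TPM. All 14 genes of the tricarboxylic acid cycle were expressed with a median of 62.6 TPM, from PC at 5.62 to MDH2 at 203 TPM. In the polyol pathway, which turns glucose into sorbitol in the diabetic lens, aldose reductase AKR1B1 had 100, 100 and 101 TPM. SORD, which turns sorbitol into fructose, had 24.3, 24.3 and 22.5 TPM. AKR1B10, a second aldo-keto reductase, averaged 0.165 TPM.

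Asparagine is the amino acid given to other groups of the series, and its metabolism at baseline was uneven. Of 20 genes for asparagine, aspartate and glutamine, 13 were expressed (65%), with a median of 3.52 TPM. ASNS, asparagine synthetase (chr7:97852118-97872542), had 2.17, 1.29 and 1.6 TPM from 43, 33 and 47 counts. It ranked 11786 of 12057 expressed protein-coding genes, and 44.6% of its exon bases are shared with AC079781.5 on the same strand. ASPG, an asparaginase, had no count, and ASRGL1, another enzyme that splits asparagine, had 4.03 ± 0.619 TPM. Glutamine enters the synthesis of asparagine. GLUL, glutamine synthetase, had 0.876, 0.786 and 1.03 TPM. The transaminases GOT2 and GOT1, which make aspartate, had 162 ± 2.99 and 96.1 ± 2.68 TPM. Among transporters, SLC1A5, which exchanges neutral amino acids including asparagine and glutamine, led with 242, 227 and 250 TPM. SLC38A2 had 159 ± 8.94 and SLC38A1 73.4 ± 2.5 TPM, and SLC38A3 and SLC38A5 averaged 0.109 and 0.0891 TPM. SLC6A14 had no count.

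Naphthalene causes cataract after cytochrome P450 enzymes make it an epoxide, epoxide hydrolase a dihydrodiol, and a dehydrogenase the catechol 1,2-DHN, which oxidises to a quinone. Of 30 genes of this route, its disposal and its sensors, 19 were expressed (63.3%, near the 60.7% of all protein-coding symbols). Of 8 activating P450 genes, 3 were expressed. CYP2S1 had 17, 14.5 and 14 TPM, CYP1B1 5.29, 6.22 and 5.45 TPM, and CYP1A1 1.69, 2.06 and 1.19 TPM. CYP2F1, the lung enzyme of naphthalene toxicity, had no count, and CYP1A2, CYP2E1 and CYP3A4 averaged 0.0204, 0.0201 and 0.0407 TPM. Of 8 genes of hydration and dihydrodiol oxidation, 6 were expressed. EPHX1, the microsomal epoxide hydrolase, had 25, 26.6 and 21.8 TPM. AKR1B1, held responsible for the dihydrodiol step in the rat lens, stood at 100 ± 0.393 TPM beside AKR1A1 at 99.5 ± 4, and their ranges overlapped. DHDH, the dimeric dihydrodiol dehydrogenase, had 6.27, 7.58 and 5 TPM from 27, 42 and 32 counts. The AKR1C genes are near-identical copies, so their low levels (3.65 TPM for AKR1C1, 0.374 for AKR1C2) are uncertain. Of 9 genes of quinone reduction and conjugation, 5 were expressed. NQO1, a quinone reductase, had 77.6, 75.3 and 74.7 TPM. The carbonyl reductase gene CBR1 had 73.8 ± 3.58 TPM. The glucuronidation genes UGT1A1 and UGT1A6 had no count, though they share exons with the rest of their locus, and SULT1A1 averaged 0.0124 TPM. All 5 sensors were expressed. KEAP1 had 102 ± 6.24 TPM and its target NFE2L2, the factor of the antioxidant response, 43.3 ± 2.77 TPM. AHR, the receptor for aromatic hydrocarbons, had 11.6 ± 0.531 TPM, less than its repressor AHRR with 35.6 ± 1.32 TPM. Same-strand genes share 29.4% of the AHR exon bases and 17.6% of those of NFE2L2.

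**Figure D4:**
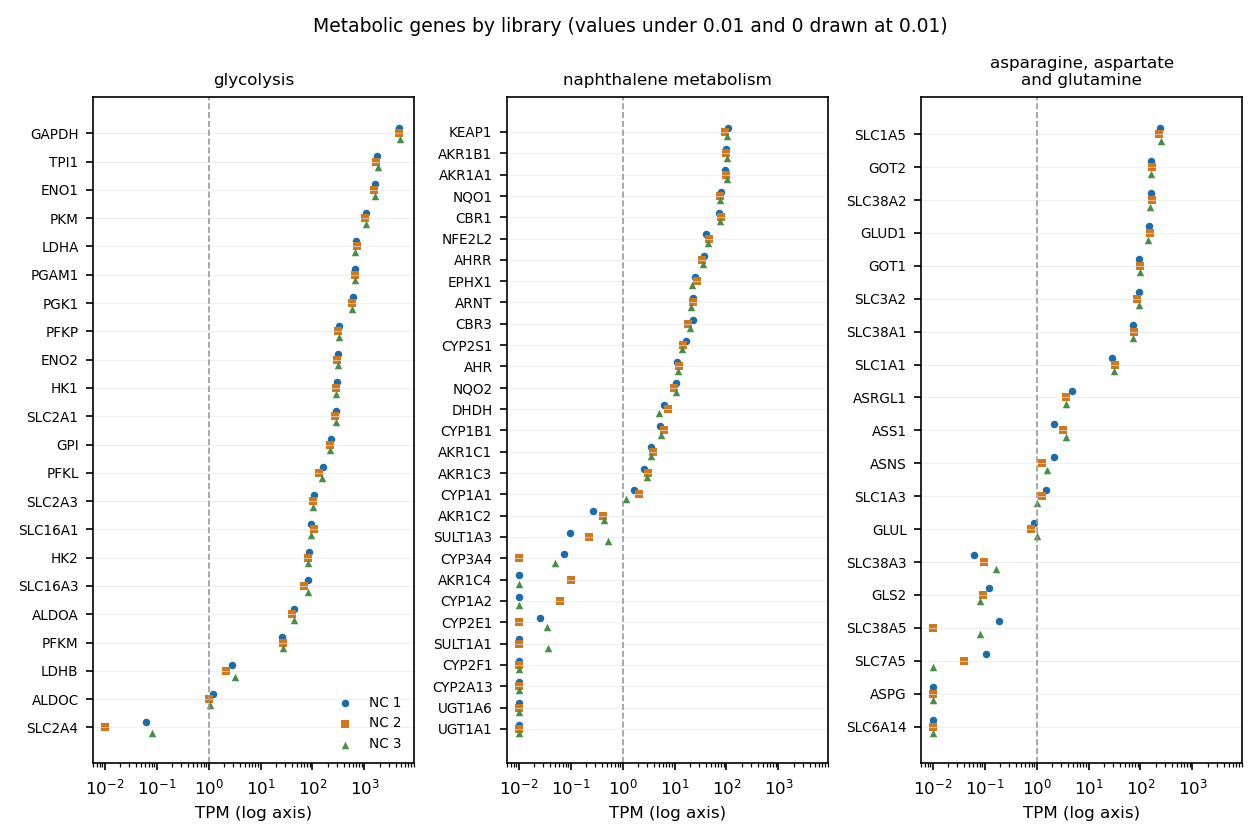
Level of each gene drawn (x axis, TPM, log scale) in the 3 libraries (symbols) for glycolysis, naphthalene metabolism and the handling of asparagine, aspartate and glutamine, sorted by mean within each panel; the dashed line marks 1 TPM. GAPDH leads glycolysis at 4670 to 4844 TPM, KEAP1, AKR1B1 and AKR1A1 lead the naphthalene panel near 100 TPM, and ASNS lies between 1.29 and 2.17 TPM.

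Defences against oxidation were broadly present. Of 31 glutathione and thioredoxin genes in the table, 27 were expressed (87.1%), with a median of 47 TPM. All 12 thioredoxin genes were expressed, led by the peroxiredoxin PRDX1 (742 ± 27.4 TPM). GPX4, which reduces lipid peroxides, had 552, 559 and 619 TPM, and GSTP1 had 277, 278 and 319 TPM, with NC 3 highest for both. GSTM1, GSTA1 and MGST1 had no count. In glutathione synthesis, GCLC (12.9 ± 0.265 TPM) was below GCLM (54.8 ± 1.53 TPM), the modifier of the same enzyme, and the cystine carrier SLC7A11 had 19.9 ± 1.12 TPM. Of 29 chaperone genes, 24 were expressed, with a median of 335 TPM. HSP90AB1 had 5541, 5362 and 5276 TPM and HSPA8, the constitutive HSP70, 1836 ± 52.8 TPM. The inducible HSPA1B had 93.8 ± 12.8 TPM and HSPA1A 3.52 ± 1.37 TPM, and as near-identical copies they may share reads. HSPB1 was 99.1% of the summed level of 8 small heat shock genes, a family to which the alpha crystallins belong.

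Receptor tyrosine kinases, which bind growth factors at the surface, were present in several families. Of 40 receptor tyrosine kinases, 24 were expressed (60%, near the background), with a median of 5.31 TPM. AXL, the receptor for GAS6, had 504, 456 and 465 TPM, and MET, the receptor for hepatocyte growth factor, 228, 232 and 216 TPM. EGFR had 99.6 ± 3.86 TPM. FGF receptors carry the signal for fibre differentiation in the lens. FGFR1 had 92.0 ± 2.34 TPM, FGFR3 5.99 ± 0.0782 TPM, FGFR4 3.05 ± 0.519 TPM, and FGFR2 averaged 0.0919 TPM. PDGFRB had 24.6 ± 1.35 TPM, and KIT had no count. In the TGF-beta and BMP axis, 25 of 30 genes were expressed (83.3%), all 11 receptors among them. TGFBR2 had 112, 107 and 110 TPM, 3.62 ± 0.3 times TGFBR1. The ligand TGFB1 had 280, 288 and 292 TPM, and INHBA, the activin subunit, 205 ± 6.41 TPM. TGFB2, the main form in the aqueous humour, had 3.33 ± 0.732 TPM, and BMP7, needed for lens induction, had no count. GREM1, a secreted BMP antagonist, had 608, 623 and 595 TPM.

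Secreted factors were numerous. Of 24 growth factors, 19 were expressed (79.2%). VEGFC, which drives lymphatic growth, had 340, 369 and 365 TPM, FGF2 315, 328 and 315 TPM, and the WNT inhibitor DKK1 142 ± 4.33 TPM. HGF, the ligand of MET, averaged 0.355 TPM, and IGF1 had no count. Of 40 cytokine and chemokine ligands, 29 were expressed (72.5%), with a median of 9.3 TPM. CCL5, which attracts T cells and monocytes, had 1009, 1038 and 1003 TPM. CXCL8, which attracts neutrophils, had 488, 521 and 489 TPM. Together with IL11 (206, 228 and 235 TPM) and IL1B (199, 207 and 193 TPM), whose ranges overlap, they were the 4 ligands past 100 TPM in every library. IL6 had 40.7, 51 and 42.8 TPM, and LIF 32.7 ± 3.12 TPM. TNF had 0, 1 and 9 counts, and IL10, IL17A, CXCL12 and IFNG had none. Of 5 interferon genes, IFNL1, IFNE (14.7 TPM) and IFNB1 were expressed at rest. IFNL1 had 35.1, 46.8 and 34.1 TPM from 110, 189 and 159 counts, and IFNB1 14.4, 13.7 and 10.1 TPM from 49, 60 and 51 counts.

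Receptors for these ligands were unequally present. Of 45 cytokine receptors, 28 were expressed (62.2%, near the background). Of 10 chemokine receptors, CCR1, a receptor of CCL5, was the only member expressed, with 3.06 ± 0.422 TPM; the CXCL8 receptor CXCR1 had no count, and CXCR2 averaged 0.0345 TPM. IL7R had 239, 238 and 221 TPM. IL6ST, the shared signalling chain of the IL-6 family, had 176, 181 and 170 TPM, and OSMR and LIFR, which pair with it, 65.8 ± 1.55 and 9.64 ± 0.56 TPM. The ligand-binding chain IL6R had 0.536, 0.476 and 0.309 TPM, and IL11RA averaged 1.05 TPM. For IL1B, IL1R1 had 8.85 ± 1.11 TPM. Of 13 receptors of the TNF family, 10 were expressed, led by TNFRSF12A (252, 221 and 268 TPM) and the TNF receptor TNFRSF1A (144 ± 2.87 TPM). For the interferons, IFNAR1 had 56.4 ± 4.87 TPM and IFNAR2 2.43 ± 0.329, and 44.2% of the IFNAR2 exon bases are shared with AP000295.1 on the same strand. Of 37 G protein-coupled receptors, 26 were expressed, none at 100 TPM. The adhesion receptor ADGRE5 had 63.0 ± 1.24 TPM and the thrombin receptor F2R 52 ± 4.71 TPM.

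**Figure D5:**
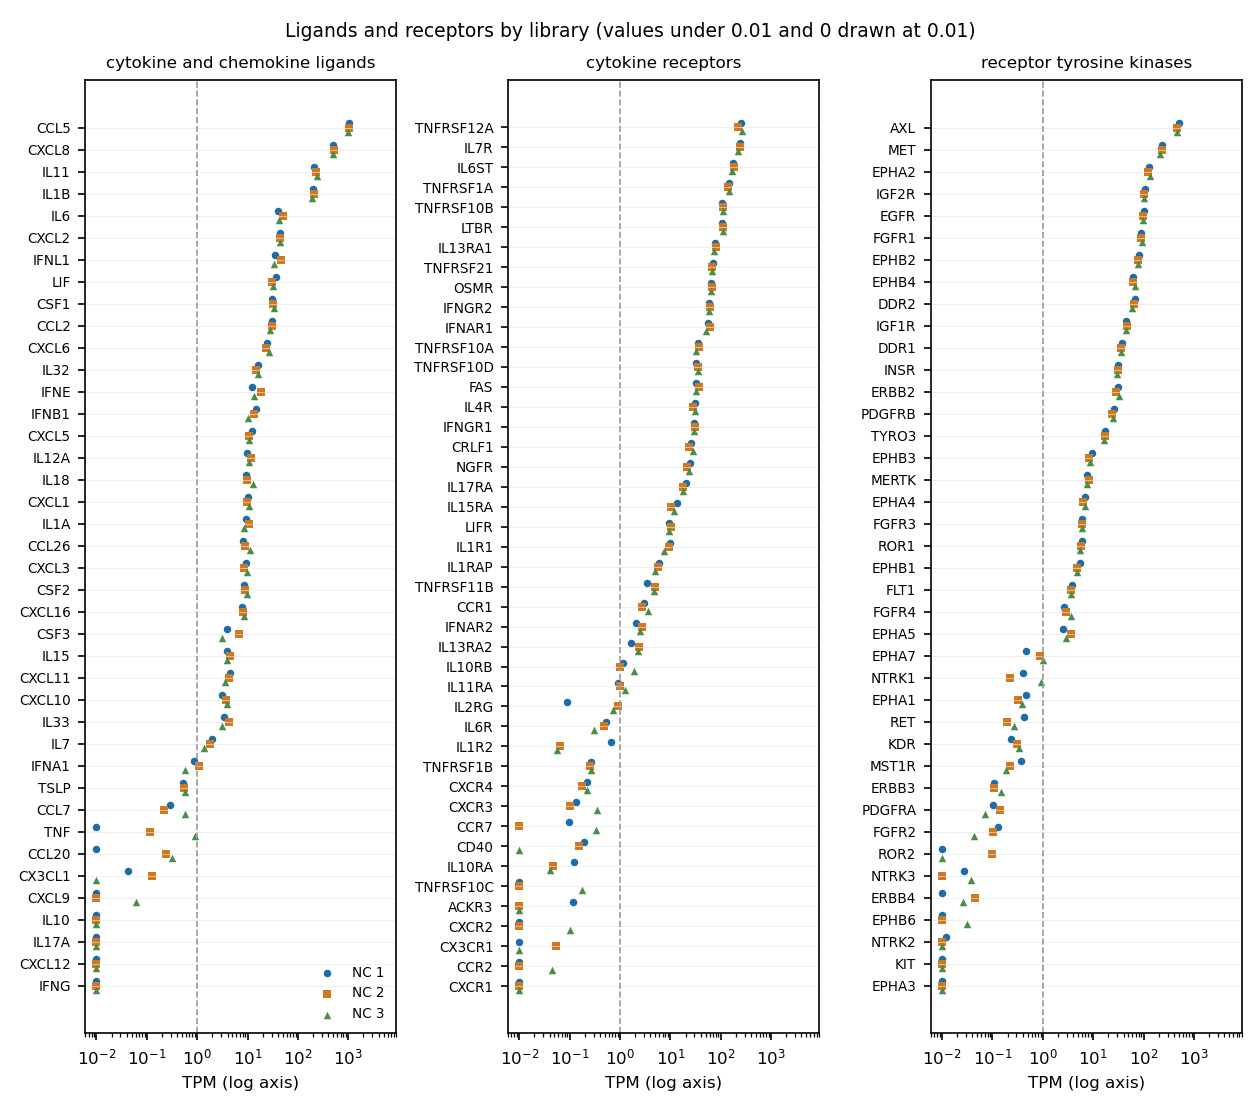
Level of each gene drawn (x axis, TPM, log scale) in the 3 libraries (symbols) for cytokine and chemokine ligands, cytokine receptors and receptor tyrosine kinases, sorted by mean within each panel; the dashed line marks 1 TPM. CCL5 (1003 to 1038 TPM) and AXL (456 to 504 TPM) lead their panels, and the chemokine receptors other than CCR1 lie below 1 TPM.

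Pattern recognition and antigen presentation had 19 of 30 listed genes expressed (63.3%, near the 60.7% of all protein-coding symbols). The 15 sensors among them had 8 expressed (53.3%), with a median of 1.18 TPM. Among sensors of foreign nucleic acid, the RNA helicases DDX58 and IFIH1 had 285 ± 10.5 and 205 ± 8 TPM. STING1, which signals from cytosolic DNA, had 170 ± 5.06 TPM, while CGAS, its upstream enzyme, had 18.6 ± 0.814 TPM. Of the Toll-like receptors, TLR3 was highest with 7.12 ± 0.857 TPM, TLR4 averaged 0.00964 TPM, and TLR8 and TLR9 had no count. Class I antigen presentation was high, with HLA-C at 942, 937 and 1015 TPM and B2M, its light chain, at 635 ± 12.6 TPM. Genes of class II differed by member. CD74, the invariant chain, had 16.4 ± 0.571 TPM, HLA-DPA1 had 2.75 ± 0.274 TPM, HLA-DRA and HLA-DRB1 had no count, and CIITA, the class II activator, averaged 0.456 TPM. The HLA genes vary between people and are similar to one another, so reads may be lost or split between them.

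The 3 libraries agreed closely. Across the 15754 expressed genes, Pearson's r of log2 TPM was between 0.983 and 0.986 for the 3 pairs (genes are not independent replicates), and the median fold between libraries was 1.08 to 1.09. The median CV over the 3 libraries was 6.69% for expressed genes and 3.5% for those at 100 TPM or more. Variation in excess of counting noise (edgeR's common dispersion, as a coefficient of variation) was 4.69%. The mean chi-square per gene was 2.89 to 3.81, so no pair agreed within sampling noise. Of the 8880 genes with a mean of at least 10 TPM and 200 counts, 9 of the 10 with the highest CV had CVs from 23.3% to 31.8%. They were the processed pseudogenes RPS7P1, AC084880.1, HSPA8P5, RPL15P3 and AL450405.1, the signal recognition RNA RN7SL1, the mitochondrial tRNA MT-TN, and the protein-coding genes ZNF460 and ZNHIT2. No gene of the identity, matrix, metabolic or cytokine lists was among these 9.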

How the data were processed

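A stranded kit was used for the libraries, per the labels' protocols, and reads were aligned with Bowtie to hg38, per the submitters' processing notes. No source used here gives the aligner's version, the counting tool, its strand setting or the annotation. The authors deposited raw read counts per gene symbol, with a length for each symbol. TPM was computed here from these counts and lengths over all 60641 symbols of each library, and a gene counted as expressed at 1 TPM or more in each of 3 libraries. Where a deposited length spans all exons of a gene, TPM is too low if only a short isoform is made. In NC 1, 1 count was worth a median of 0.256 TPM, and in NC 3 0.186 TPM.

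Gene types, coordinates (GRCh38, 1-based) and overlaps came from GENCODE release 29 by symbol. Of all symbols, 55381 matched 1 gene, 39502 of them with a deposited length equal to the union of its exons; 1135 others were typed by RefSeq and 4125 had no type. Promoter sequences are RefSeq's, GRCh38.p14. The 41 gene lists (875 genes) and the named genes were chosen with earlier results of these data known. Named were the identity markers, the 20 highest genes, the leading expressed and the defining absent members of each list, the 10 most variable genes and the highest factors, and some results that this rule selects are not reported here. No test was made, since 1 group was described; edgeR 4.0.16 (R 4.3.3) gave only scaling factors and the spread, and other values came from Python 3.11.15 with pandas 2.3.3. An exact agreement of libraries was looked for by chi-square.

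The expression rule was tested on simulated data. A first target for the share of genes recovered, set for all genes at 1 TPM or more, was missed and was then replaced by a target for higher and longer genes, which was met. Alternatives were thresholds of 0.5 and 2 TPM, a mean of 1 TPM, a minimum of 10 counts, other gene sets, lengths and scaling, thinning to 16514049 counts, and each library left out.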

Additional observations from a re-analysis of the deposited data

How the results depend on the processing

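No paired analysis was possible because 1 group was described and no result comes from a test. Over 14 alternatives, the number of expressed genes lay between 12123 (protein-coding genes only) and 18231 (mean of at least 1 TPM), within 1.5 times the 15754 reported. The lens lists had 21 to 25 expressed members, the epithelial list 13 to 15, the mesenchymal list 34 to 36, the HOX genes 21 to 31 and the crystallins 2 to 4. With each library left out in turn, expressed genes numbered 16318 to 16531, and the median CV was 5.57% to 6.07%. That CV was 5.4% to 8.02% over all alternatives. Leaving out mitochondrially encoded genes moved the share of the 100 highest genes from 29% to 20.7% and that of ribosomal protein genes from 4.44% to 5.07%. The 100 highest genes were then all nuclear, and these held 18.1% of the full TPM. With protein-coding genes only, the mitochondrial share moved from 12.5% to 10.6% and the ribosomal share to 4.81%. Without genes that share exon bases on the same strand, an alternative chosen after seeing the data, they were 11.9% and 3.85%. Of 21 single genes followed, 18 moved by at most 1.15-fold. CRYAB, on 6 to 22 counts, moved 1.46-fold with reference exon lengths, 1.23-fold without NC replicate 1 and 1.35-fold without NC replicate 2. GAPDH was at 3853 TPM with reference exon lengths, and ASNS at 1.44 TPM without NC replicate 1. Depth limits the genes near 1 TPM: 3 counts in the smallest library are worth 0.14 TPM for VIM but 1.2 TPM for CRYGD.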

Other observations

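Genes induced by interferon stood high in the untreated cells. This list of 29 genes was chosen after their values were seen. Of the 29, 28 were expressed, and their summed level was 12240 ± 58.3 TPM (SD, n = 3). IFIT3, which binds foreign RNA with its relatives, had 2911, 2977 and 2822 TPM. IFI6 had 2299 ± 77.8, the ubiquitin-like modifier ISG15 1540 ± 92.3 and IFIT2 1493 ± 40.9 TPM. IFNB1 (12.8 TPM), IFNE (14.7 TPM) and IFNL1 (38.7 TPM) were expressed in the same libraries. The part of these ligands in the levels was not tested.

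The actin genes, also chosen after their values were seen, were led by ACTB and ACTG1 (3178 ± 99.6 TPM). ACTG2, the enteric smooth muscle form, had 2877, 2811 and 2930 TPM, 132 ± 0.91 times ACTA2, the vascular form. Actin coding sequences are near-identical, and no source used here says how reads that match several of them were counted.

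Some genes that most cells need were low, and shared exons with a neighbour on the same strand. RPS10 had 2.4 TPM with 39.4% of its exon bases shared with RPS10-NUDT3, and RPL17 6.41 TPM with 32.7% shared, where the median ribosomal protein gene had 376 TPM. SLC7A5, a light chain that pairs with SLC3A2 (92.1 ± 3.98 TPM), had 2, 1 and 0 counts with no same-strand overlap in the annotation. These genes were chosen after their values were seen, and the cause was not tested.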
